A study of Mus musculus with 8 samples.

Results

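The nuclear genes for the subunits of oxidative phosphorylation were described across 8 bulk RNA-seq libraries of primary embryonic neural stem cells of the mouse, grown as neurospheres, which are floating clusters of cultured progenitors. By their labels, 4 libraries came from Phf23-/- cells, called Phf23 knockout here, and 4 from wild type (Phf23+/+) cells. The study asked how loss of Phf23, a chromatin protein with a PHD finger, blocks differentiation of these cells. The sources used here give no age, strain, sex or allele, and do not say whether the replicates were separate cultures or animals, so the tests measure only the spread between these libraries. The set was proposed with earlier results of these data known, and its members follow from their names: protein-coding genes whose symbol starts with Ndufa, Ndufb, Ndufc, Ndufs, Ndufv, Uqcr, Cox4i, Cox5, Cox6, Cox7, Cox8 or Atp5, or is Sdha, Sdhb, Sdhc, Sdhd or Cyc1, leaving out the Ndufaf assembly factors. Of 86 annotated symbols of this kind, Cox7b2 and Cox8c were not analysed here, which left 84 genes of 15538 measured. They comprised 36 subunits of complex I, 4 of complex II, 9 of complex III, 17 of complex IV (Ndufa4 among them, as it is now placed), 16 of complex V, and 2 genes outside the assembled complexes, Ndufa4l2 and Atp5s.

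Oxidative phosphorylation is run by 5 assemblies in the inner mitochondrial membrane. Complex I (NADH dehydrogenase) and complex II (succinate dehydrogenase) pass electrons to ubiquinone, complex III (cytochrome bc1) passes them on to cytochrome c, and complex IV (cytochrome c oxidase) hands them to oxygen. The proton gradient built by complexes I, III and IV drives complex V, the ATP synthase. A few core subunits are encoded by mitochondrial DNA, and all others, complex II entire, are encoded in the nucleus and imported. Neural stem cells are known for glycolytic metabolism, and neuronal differentiation for a shift towards respiration.

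Many promoters of these genes are known to carry sites for the activators NRF1, GABP (an ETS factor) and YY1. Some of these promoters are shown here as background. Whether such sites had a part in the differences between libraries was not tested. RefSeq promoter windows (GRCm38.p6, the assembly that mm10 denotes), which run from 250 bases before to 50 after an annotated start, were at hand for 66 of the 84 genes. Capitals mark the matches to the motifs GCATGCGC (NRF1), CCGGAAG (ETS/GABP) and AAGATGGC (YY1) on either strand, in windows written 5′ to 3′ on the strand of the gene.
Uqcr11, chr10:80406772-80407071, minus strand: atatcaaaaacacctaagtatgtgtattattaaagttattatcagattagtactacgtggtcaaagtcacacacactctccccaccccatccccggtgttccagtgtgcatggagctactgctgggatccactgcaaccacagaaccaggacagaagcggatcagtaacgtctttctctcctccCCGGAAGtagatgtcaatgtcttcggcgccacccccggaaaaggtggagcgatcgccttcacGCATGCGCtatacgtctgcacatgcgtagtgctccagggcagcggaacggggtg
Cox6a1, chr5:115348909-115349208, minus strand: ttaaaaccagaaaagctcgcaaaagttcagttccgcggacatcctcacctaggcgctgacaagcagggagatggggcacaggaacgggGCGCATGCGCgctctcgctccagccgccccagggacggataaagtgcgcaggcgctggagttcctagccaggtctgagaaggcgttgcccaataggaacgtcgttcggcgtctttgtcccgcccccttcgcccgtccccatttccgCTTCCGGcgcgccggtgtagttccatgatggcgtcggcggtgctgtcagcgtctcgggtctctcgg
Atp5j, chr16:84834927-84835226, minus strand: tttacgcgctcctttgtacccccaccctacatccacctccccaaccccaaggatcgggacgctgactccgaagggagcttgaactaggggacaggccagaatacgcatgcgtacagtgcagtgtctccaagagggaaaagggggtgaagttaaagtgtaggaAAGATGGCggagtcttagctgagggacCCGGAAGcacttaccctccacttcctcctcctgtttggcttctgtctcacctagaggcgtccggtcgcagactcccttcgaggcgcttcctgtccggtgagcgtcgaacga
In Uqcr11 the ETS motif began 66 bases and the NRF1 motif 4 bases before the start. In Cox6a1, 2 overlapping NRF1 matches, which form 1 run of capitals, began 162 and 160 bases before the start, and an ETS motif on the other strand 16 bases before it. In Atp5j, whose start faces that of Gabpa (a subunit of GABP itself) on the other strand, YY1 and ETS motifs began 88 and 61 bases before the start, and another annotated start of Atp5j held none of the 3 motifs. Over all 71 windows of the 66 genes, 14.1% held the NRF1 motif, 22.5% the ETS motif, 12.7% the YY1 motif and 40.8% at least 1 of them. The same shares over 14756 windows of protein-coding genes were 4.69%, 15.4%, 3.86% and 22.0%. The median log2 fold change between genotypes was 0.85 in the 29 subunit genes with at least 1 motif and 0.80 in the others with a window. The order turned round when the trend with transcript length and GC content described below was subtracted, with medians of 0.36 and 0.43. A match is a description of these letters and not evidence of binding.

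Values are normalised reads, which are gene read counts that the authors divided by a size factor per library, and 4 values of a gene are given in the order of replicates 1 to 4. Recovered depth was 18099114 to 19462516 reads in libraries labelled Phf23 knockout and 15647304 to 18241215 reads in those labelled wild type. The targeted gene went against its label. Reads of Phf23 itself (ENSMUSG00000018572, chromosome 11, 69995777 to 70000009, plus strand; coordinates here are those of mm10) came to 1607, 1528, 1429 and 1361 normalised reads in libraries labelled Phf23 knockout, against 720.4, 766, 788 and 919 in those labelled wild type, which is a log2 fold change of 0.89 ± 0.11 (SE; limma-trend FDR = 0.000581). Counts over a whole gene do not show whether part of it was deleted, so the groups are named by label throughout, and each direction given below rests on these labels. All 6 neural stem cell markers on the list (Nes, Sox2, Vim, Fabp7, Slc1a3 and Msi1) were measured, and their sum was 152370 to 194792 normalised reads in libraries labelled Phf23 knockout and 132516 to 142576 in those labelled wild type. Vim, not called (0.35, limma-trend FDR = 0.0633), and Fabp7, called higher (0.62), made up most of that sum. Msi1 (0.45) was the only other one of the 6 called, and Nes (-0.11) and Slc1a3 (-0.01) were near 0. The 5 neuronal markers (Tubb3, Dcx, Map2, Rbfox3 and Snap25) summed to 9192 to 12079 normalised reads in libraries labelled Phf23 knockout and 15208 to 20453 in those labelled wild type, and nearly all of these reads were Map2, which was lower (log2 fold change -0.79 ± 0.13, SE; limma-trend FDR = 0.00282). Of the others, Rbfox3 was higher at a low level, with a mean of 45.0 normalised reads in libraries labelled Phf23 knockout and 15.7 in those labelled wild type (log2 fold change 1.63 ± 0.37, SE; limma-trend FDR = 0.0100), while Tubb3 (-0.000527), Dcx (0.10) and Snap25 (-0.31) were not called. Markers of microglia, endothelium, red cells and fibroblasts were unmeasured or summed to at most 70.4 normalised reads in every library. The share of these cell types in each library was not measured otherwise, and its part in the results was not tested. The libraries also differed by transcript length. Each library's log2 deviation from the gene means, regressed on log2 transcript length, gave slopes of -0.23, -0.30, -0.09 and 0.04 in libraries labelled Phf23 knockout 1 to 4, against 0.25, 0.19, 0.08 and 0.06 in those labelled wild type 1 to 4, so that short transcripts were read more, relative to long ones, in Phf23 knockout 1 and 2 and less in wild type 1 and 2. Most subunit genes are short (median 849.5 nt for the principal transcript, against 2950 nt over all genes), so genes of like length are set beside them below.

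Nearly all subunit genes were higher in the libraries labelled Phf23 knockout. With limma-trend at a false discovery rate (FDR) under 0.05 over all 15538 genes, 77 of 84 were called higher and 0 lower. Over all genes, 14.8% were called higher and 14.8% lower. None of the 84 had a negative log2 fold change at an unadjusted p under 0.05, and edgeR and DESeq2 also called 77 higher and 0 lower, where they called 18.1% and 18.6% of all genes higher. The median log2 fold change (on the log2(value + 1) scale, Phf23 knockout over wild type) was 0.79, with an interquartile range of 0.61 to 1.0 and a full range of -0.32 to 1.71, against a median of 0.00 over all genes. In 69 of the 84, every library labelled Phf23 knockout lay above every library labelled wild type, as in 13.6% of all genes. The 7 genes not called were Ndufs1 of complex I, Uqcrc2 of complex III, Cox4i2, Cox6a2 and Cox8b of complex IV, and both genes outside the complexes. Leaving out any 1 library left 65 to 78 of the 84 called higher, the fewest without Phf23 knockout 1. In at least 1 such fit 12 calls were lost, those of Ndufb3, Ndufb11, Ndufc1, Ndufs4, Ndufv2, Sdha, Uqcrb, Cox7a1, Atp5a1, Atp5f1, Atp5g2 and Atp5j, at an FDR of at most 0.108. Ndufs4 was lost in 7 of the 8 fits, Uqcrb in 6, Atp5g2 in 5 and Sdha in 4. In bulk RNA, a change in the make-up of the culture and a change per cell cannot be told apart.

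**Figure D1:**
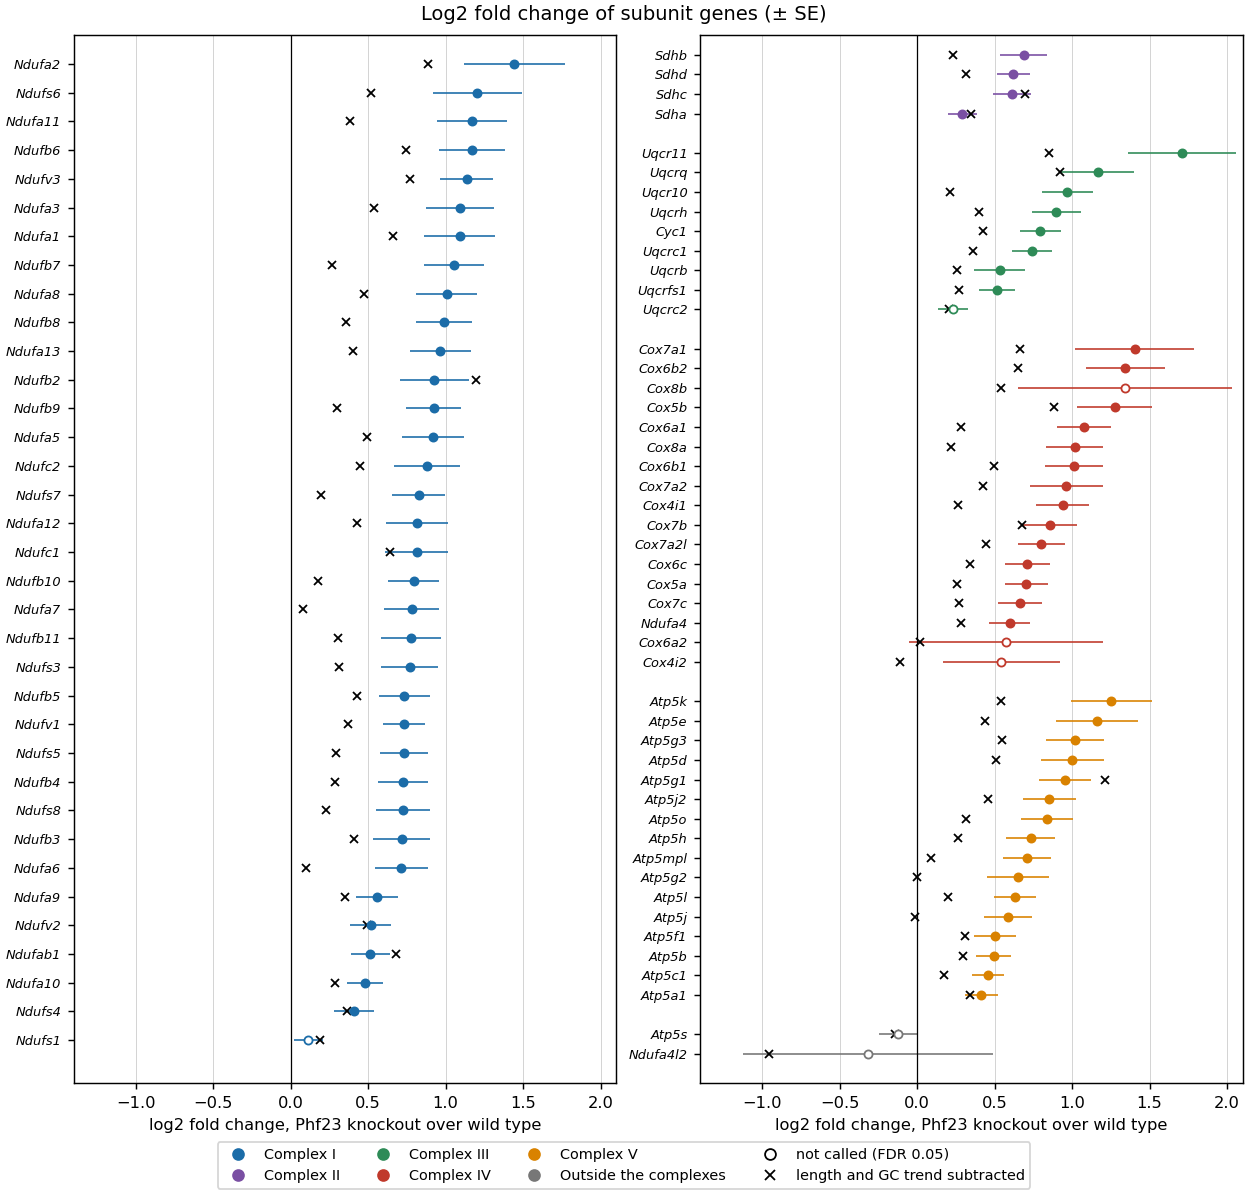
Log2 fold change, Phf23 knockout over wild type, of the subunit genes by complex, but for 1 that is not shown (points ± SE from limma-trend, n = 4 libraries each), with filled points for genes called at an FDR under 0.05 and crosses for the value after a length and GC trend was subtracted from each library. All but 2 points lie right of 0, and most crosses lie nearer to 0 than their points, around a median of 0.35 over all 84 genes.

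Of the complex I genes, 35 of 36 were higher, with a median log2 fold change of 0.80. Its 7 core subunits encoded in the nucleus carry the flavin and the iron-sulphur clusters, and the others are accessory subunits needed for assembly and stability. Of the core genes 6 of 7 were higher (median 0.72), and of the accessory genes 29 of 29 (median 0.88), while the principal transcripts had median lengths of 1623 nt in the core and 763 nt in the accessory set. Ndufv3 (ENSMUSG00000024038, chromosome 17, 31520115 to 31531331, plus strand), an accessory subunit of the NADH-binding module, had the lowest FDR of all subunit genes. It had 2798, 3139, 2157 and 2021 normalised reads in libraries labelled Phf23 knockout, against 906, 979, 1364 and 1353 in those labelled wild type. No library of one genotype reached into the range of the other, and the log2 fold change was 1.14 ± 0.17 (SE; limma-trend FDR = 0.00213). Its difference also had the lowest FDR of the 84 after the length trend was subtracted (0.77, FDR = 8.02e-05). Ndufa2 (ENSMUSG00000014294, chromosome 18, 36742332 to 36744557, minus strand), an accessory subunit of the peripheral arm, had the largest fold change in the complex, 1.44 ± 0.32 (SE; limma-trend FDR = 0.0107). Its values were 3974, 3669, 2258 and 2018 normalised reads in libraries labelled Phf23 knockout, against 694, 664, 1555 and 1689 in those labelled wild type. Here knockout 1 and 2 stood far above knockout 3 and 4, and wild type 1 and 2 far below wild type 3 and 4. With the trend subtracted, Ndufa2 did not pass the threshold (0.88, FDR = 0.0798), and its exons overlap those of Tmco6 on the other strand, whose reads cannot be told apart from its own if strand was not used in counting.

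Ndufc2, an accessory subunit of the membrane arm, had the highest level per kilobase of transcript in complex I, 10956 ± 2813 normalised reads per kb in libraries labelled Phf23 knockout and 5984 ± 1706 in those labelled wild type (mean ± SD, n = 4 each). Its log2 fold change was 0.88 ± 0.21 (SE; limma-trend FDR = 0.0122). Other accessory genes with a log2 fold change above 1 were Ndufs6 (1.20), Ndufa11 (1.17), Ndufb6 (1.17), Ndufa3 (1.10), Ndufa1 (1.09), Ndufb7 (1.05) and Ndufa8 (1.01), all with principal transcripts of at most 861 nt. Among the core genes, Ndufv1, which holds the flavin that takes electrons from NADH, had 3382 ± 582 normalised reads in libraries labelled Phf23 knockout, against 2031 ± 283 in those labelled wild type (mean ± SD), a log2 fold change of 0.73 ± 0.13 (SE; limma-trend FDR = 0.00498). Ndufs1, the largest core subunit with a principal transcript of 2661 nt, had 3502, 2818, 3343 and 3387 normalised reads in libraries labelled Phf23 knockout, against 3014, 3091, 3017 and 2891 in those labelled wild type. The genotypes overlapped, and its log2 fold change of 0.11 ± 0.0954 (SE; limma-trend FDR = 0.386) did not pass the threshold.

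All 4 genes of complex II were higher, with no overlap between genotypes in any of them and a median log2 fold change of 0.62. Sdhd (ENSMUSG00000000171, chromosome 9, 50596357 to 50603812, minus strand), which with Sdhc anchors the enzyme in the membrane, had 4564, 4057, 3884 and 3603 normalised reads in libraries labelled Phf23 knockout, against 2278, 2562, 2710.3 and 2929 in those labelled wild type. Its log2 fold change was 0.62 ± 0.11 (SE; limma-trend FDR = 0.00417). Sdhb, the iron-sulphur subunit, had the largest change, 0.69 ± 0.15 (SE; limma-trend FDR = 0.00916), and also the highest level per kb, 4082 ± 895 normalised reads per kb in libraries labelled Phf23 knockout and 2504 ± 316 in those labelled wild type. Sdha, the flavoprotein that oxidises succinate, with a principal transcript of 2900 nt, had 7824 ± 558 normalised reads in libraries labelled Phf23 knockout, against 6384 ± 261 in those labelled wild type (mean ± SD). Its change was the smallest, 0.29 ± 0.0923 (SE; limma-trend FDR = 0.0324). With the length trend subtracted, all 4 remained called, at log2 fold changes of 0.34 (Sdha), 0.23 (Sdhb), 0.69 (Sdhc) and 0.32 (Sdhd). The order of Sdha and Sdhb was then turned round. The value of Sdhc rests on a principal transcript of 3171 nt, and was 0.28 with its shortest coding transcript of 815 nt.

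In complex III, 8 of 9 genes were higher, with a median log2 fold change of 0.79. Cyc1 (ENSMUSG00000022551, chromosome 15, 76343523 to 76346260, plus strand), cytochrome c1, the haem subunit that hands electrons to cytochrome c, had 8027, 8923, 7102 and 6166 normalised reads in libraries labelled Phf23 knockout, against 3786, 3963, 4644 and 4972 in those labelled wild type. Its log2 fold change was 0.79 ± 0.13 (SE; limma-trend FDR = 0.00320), with a clear gap between genotypes. Uqcr11 (ENSMUSG00000020163, chromosome 10, 80402997 to 80406830, minus strand), the smallest accessory subunit, had the largest log2 fold change of all 84 genes, 1.71 ± 0.35 (SE; limma-trend FDR = 0.00781). The values were 3765, 3844, 2018 and 1930.3 normalised reads in libraries labelled Phf23 knockout, against 473, 599, 1229.7 and 1412 in those labelled wild type. Most of the size of that change came from 4 libraries: without replicates 1 and 2 of both genotypes, the log2 fold change was 0.58. Uqcrh, the hinge protein that binds cytochrome c1, had the highest level per kb, 10679 ± 2357 normalised reads per kb in libraries labelled Phf23 knockout and 5667 ± 859.6 in those labelled wild type, and a log2 fold change of 0.90 ± 0.16 (SE; limma-trend FDR = 0.00431). Of the large core proteins, Uqcrc1 had a log2 fold change of 0.74 ± 0.13 (SE; limma-trend FDR = 0.00389). Its partner Uqcrc2 had 3602, 4091, 3786 and 3460.5 normalised reads in libraries labelled Phf23 knockout, against 3103, 3374, 3335 and 2917 in those labelled wild type. Its genotypes did not overlap, but the log2 fold change of 0.23 ± 0.0950 (SE; limma-trend FDR = 0.0837) did not pass the threshold.

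Complex IV had the highest median log2 fold change of the complexes, 0.94, and 14 of its 17 genes were higher. It also had the shortest transcripts, with a median of 645 nt. Cox6a1 (ENSMUSG00000041697, chromosome 5, 115345642 to 115348981, minus strand), the ubiquitous form of subunit 6A, had the lowest FDR and the highest level per kb in the complex, 21265 ± 6081 normalised reads per kb in libraries labelled Phf23 knockout and 9816 ± 1021 in those labelled wild type. It had 13853, 16102, 10165 and 8448 normalised reads in libraries labelled Phf23 knockout, against 5075, 5220.2, 5768 and 6357 in those labelled wild type. The log2 fold change was 1.08 ± 0.17 (SE; limma-trend FDR = 0.00304). Cox4i1, the ubiquitous form of subunit 4, had 14553, 13337, 9863 and 8463 normalised reads in libraries labelled Phf23 knockout, against 4852, 5421, 6458 and 7065 in those labelled wild type, a log2 fold change of 0.94 ± 0.17 (SE; limma-trend FDR = 0.00507). The 2 matrix-facing subunits, Cox5a and Cox5b, changed by 0.70 ± 0.14 (SE; limma-trend FDR = 0.00619) and 1.27 ± 0.24 (SE; limma-trend FDR = 0.00568). Cox7a2l, known as a factor that links complexes III and IV, changed by 0.80 ± 0.15 (SE; limma-trend FDR = 0.00569), and Cox8a by 1.02 ± 0.18 (SE; limma-trend FDR = 0.00487). Ndufa4, once counted in complex I, had 5947 ± 1107 normalised reads in libraries labelled Phf23 knockout, against 3887 ± 317 in those labelled wild type (mean ± SD) and a log2 fold change of 0.60 ± 0.13 (SE; limma-trend FDR = 0.00920).

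Several subunits of complex IV have a second form made mostly in certain tissues, such as heart and skeletal muscle. Of these, Cox4i2, Cox6a2, Cox8b and Cox7a1 had at most 84.2 normalised reads in any library. Cox4i2, whose product replaces that of Cox4i1 mainly in lung, had 12.5, 15.8, 9.30 and 9.78 normalised reads in libraries labelled Phf23 knockout, against 11.8, 4.80, 10.1 and 5.81 in those labelled wild type. Cox6a2 and Cox8b, the muscle forms of their subunits, averaged 4.26 ± 2.78 and 32.1 ± 4.46 normalised reads in libraries labelled Phf23 knockout, against 2.91 ± 2.11 and 18.8 ± 14.8 in those labelled wild type (SD, n = 4 each). At this depth none of these 3 differed beyond the spread of the libraries, with log2 fold changes of 0.54 ± 0.38 (SE; limma-trend FDR = 0.298), 0.57 ± 0.63 (SE; limma-trend FDR = 0.523) and 1.34 ± 0.69 (SE; limma-trend FDR = 0.160). Cox7a1, the muscle form of subunit 7A, was called higher at a low level, with 61.6, 84.2, 45.6 and 30.3 normalised reads in libraries labelled Phf23 knockout, against 8.83, 20.2, 23.6 and 30.0 in those labelled wild type, a log2 fold change of 1.40 ± 0.38 (SE; limma-trend FDR = 0.0185). It made up 1.16% ± 0.148 of the reads of Cox7a1 and Cox7a2 together in libraries labelled Phf23 knockout and 0.868% ± 0.309 in those labelled wild type, beside Cox7a2 with 4647 ± 1656 normalised reads in libraries labelled Phf23 knockout, against 2347 ± 659 in those labelled wild type (mean ± SD) and a log2 fold change of 0.96 ± 0.24 (SE; limma-trend FDR = 0.0127). Cox6b2, known for its expression in testis, was by contrast well expressed, with 1712, 2151, 1291 and 1043 normalised reads in libraries labelled Phf23 knockout, against 423, 436, 769.6 and 843 in those labelled wild type and a log2 fold change of 1.34 ± 0.25 (SE; limma-trend FDR = 0.00568). The ubiquitous Cox6b1 changed by 1.01 ± 0.19 (SE; limma-trend FDR = 0.00534). Cox6b2 supplied 19.5% ± 0.719 of the reads of the 2 genes in libraries labelled Phf23 knockout and 16.3% ± 2.43 in those labelled wild type (SD, n = 4 each), with overlapping library values.

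All 16 genes of complex V were higher, with a median log2 fold change of 0.72. The 5 genes of the catalytic F1 head had a median of 0.50 and the 11 others one of 0.73. Atp5b (ENSMUSG00000025393, chromosome 10, 128083273 to 128090391, plus strand), the catalytic beta subunit, had the highest level per kb of all 84 genes, 22746 ± 2931 normalised reads per kb in libraries labelled Phf23 knockout and 16046 ± 587 in those labelled wild type. It had 45866, 50348, 40209 and 37905 normalised reads in libraries labelled Phf23 knockout, against 29917, 31255, 29721 and 32086 in those labelled wild type, so its genotypes did not overlap, and its log2 fold change was 0.50 ± 0.11 (SE; limma-trend FDR = 0.00998). Its alpha partner Atp5a1 changed by 0.41 ± 0.11 (SE; limma-trend FDR = 0.0152). The small F1 subunits had larger log2 fold changes, 1.0 ± 0.20 (SE; limma-trend FDR = 0.00698) for Atp5d (delta) and 1.16 ± 0.27 (SE; limma-trend FDR = 0.0105) for Atp5e (epsilon). Atp5k, subunit e, which helps the enzyme form dimers and has a principal transcript of 371 nt, had 2001, 2575, 1781 and 1371 normalised reads in libraries labelled Phf23 knockout, against 544, 548, 1171 and 1112 in those labelled wild type. Its log2 fold change of 1.25 ± 0.26 (SE; limma-trend FDR = 0.00752) was the largest in the complex.

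The 3 genes Atp5g1, Atp5g2 and Atp5g3 encode the same mature subunit c, which forms the rotating ring of complex V, with different import signals. Atp5g1 (ENSMUSG00000006057, chromosome 11, 96068852 to 96075670, minus strand) had the lowest FDR in the complex, with 5079, 6549.6, 4313 and 3386 normalised reads in libraries labelled Phf23 knockout, against 2220.1, 2264, 2605 and 2640.1 in those labelled wild type, a log2 fold change of 0.95 ± 0.17 (SE; limma-trend FDR = 0.00411). Atp5g3 had 13994, 16767, 10895 and 9276 normalised reads in libraries labelled Phf23 knockout, against 4845, 5311, 7203 and 7579 in those labelled wild type, a log2 fold change of 1.02 ± 0.19 (SE; limma-trend FDR = 0.00526). Atp5g2 had 5740.4, 9823, 6360.4 and 4894 normalised reads in libraries labelled Phf23 knockout, against 3304, 3529, 5156 and 4793 in those labelled wild type, and here the genotypes overlapped, at a log2 fold change of 0.65 ± 0.20 (SE; limma-trend FDR = 0.0296). Of the reads of the 3 genes, Atp5g1 took 19.9% ± 0.491 in libraries labelled Phf23 knockout and 19.2% ± 2.01 in those labelled wild type (SD, n = 4 each). Atp5g2 took 27.5% ± 3.04 in libraries labelled Phf23 knockout and 32.5% ± 1.30 in those labelled wild type, and Atp5g3 52.6% ± 2.76 in libraries labelled Phf23 knockout and 48.3% ± 1.58 in those labelled wild type. The share of Atp5g2 was lower in each library labelled Phf23 knockout than in any labelled wild type. Atp5g1 and Atp5g2 each have at least 1 other annotated gene that is near-identical over part of the transcript, so their counts are less certain.

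**Figure D2:**
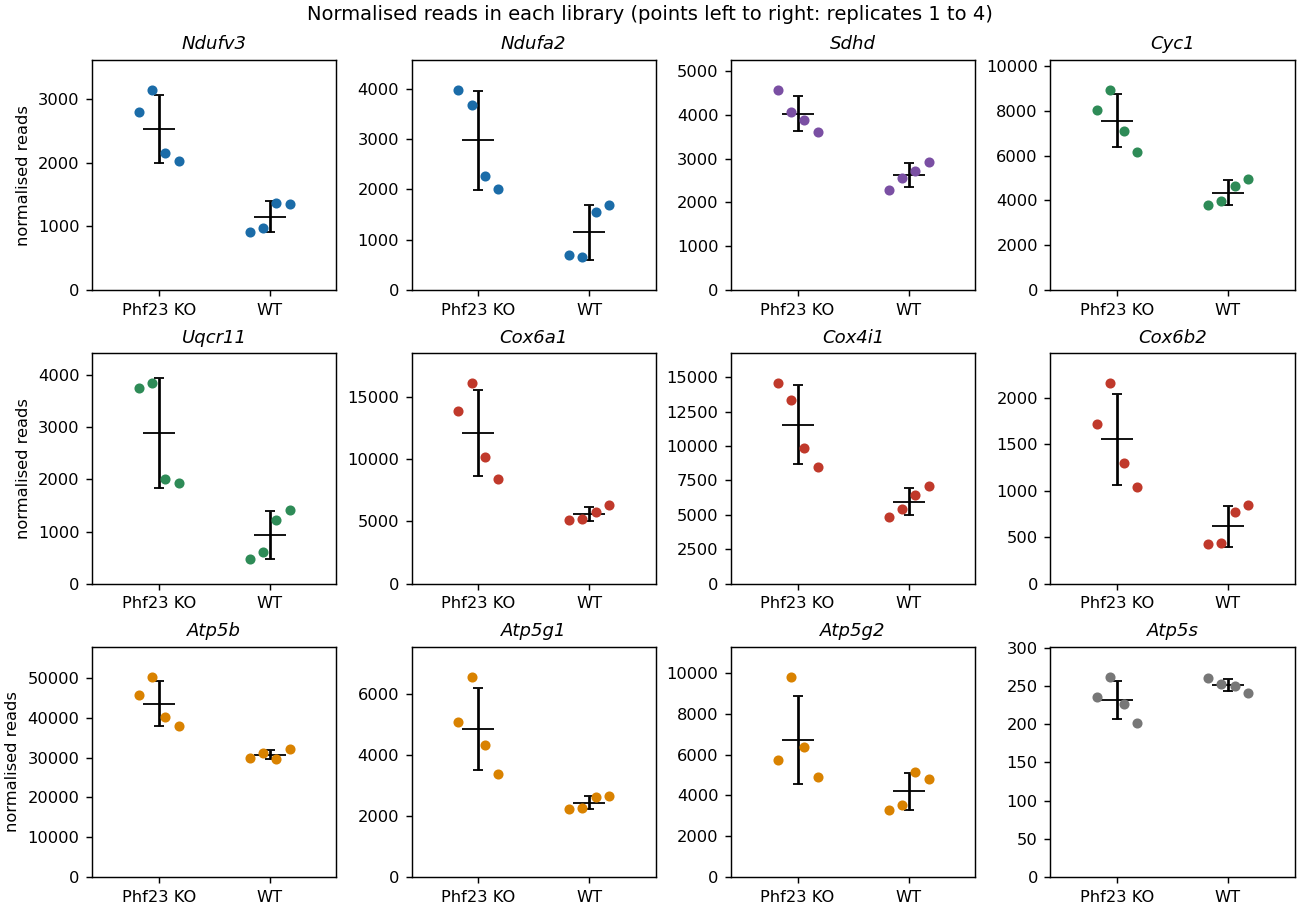
Normalised reads per library of 12 subunit genes (points left to right in each group are replicates 1 to 4; bars are mean ± SD, n = 4; KO and WT are the genotype labels; each y axis starts at 0). Knockout 1 and 2 lie above knockout 3 and 4, and wild type 1 and 2 below wild type 3 and 4, in most panels, with Atp5g2, Atp5s and Atp5b among the exceptions.

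Both genes outside the assembled complexes stood apart from the subunits. Atp5s, known as coupling factor B, had 236, 262, 226 and 202 normalised reads in libraries labelled Phf23 knockout, against 261, 253, 249.8 and 241 in those labelled wild type, a log2 fold change of -0.12 ± 0.12 (SE; limma-trend FDR = 0.466). Ndufa4l2, a relative of Ndufa4 known to be induced by hypoxia, had 8.66, 0, 4.65 and 0 normalised reads in libraries labelled Phf23 knockout, against 0.981, 1.92, 6.75 and 1.94 in those labelled wild type, too few to compare, with a log2 fold change of -0.32 ± 0.80 (SE; limma-trend FDR = 0.797).

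Summed reads moved the same way in each complex. Complex I took 0.519% ± 0.0948 of all normalised reads in libraries labelled Phf23 knockout and 0.321% ± 0.0494 in those labelled wild type (mean ± SD, n = 4 each), a ratio of 1.61. For complex II the share was 0.122% ± 0.00922 in libraries labelled Phf23 knockout and 0.0895% ± 0.00724 in those labelled wild type, a ratio of 1.36. For complex III the share was 0.259% ± 0.0377 in libraries labelled Phf23 knockout and 0.157% ± 0.0218 in those labelled wild type, a ratio of 1.65. For complex IV the share was 0.428% ± 0.0933 in libraries labelled Phf23 knockout and 0.237% ± 0.0339 in those labelled wild type, a ratio of 1.80. For complex V the share was 0.865% ± 0.132 in libraries labelled Phf23 knockout and 0.583% ± 0.0471 in those labelled wild type, a ratio of 1.48. All 84 genes together took 2.41, 2.58, 2.0 and 1.79% in libraries labelled Phf23 knockout 1 to 4, against 1.21, 1.31, 1.51 and 1.54% in those labelled wild type 1 to 4. The lowest share labelled Phf23 knockout was above the highest labelled wild type in each of the 5 complexes. No difference between complexes was tested. The 13 subunits encoded in mitochondrial DNA took 3.49% ± 0.852 in libraries labelled Phf23 knockout and 3.42% ± 0.636 in those labelled wild type, with overlapping libraries.

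**Figure D3:**
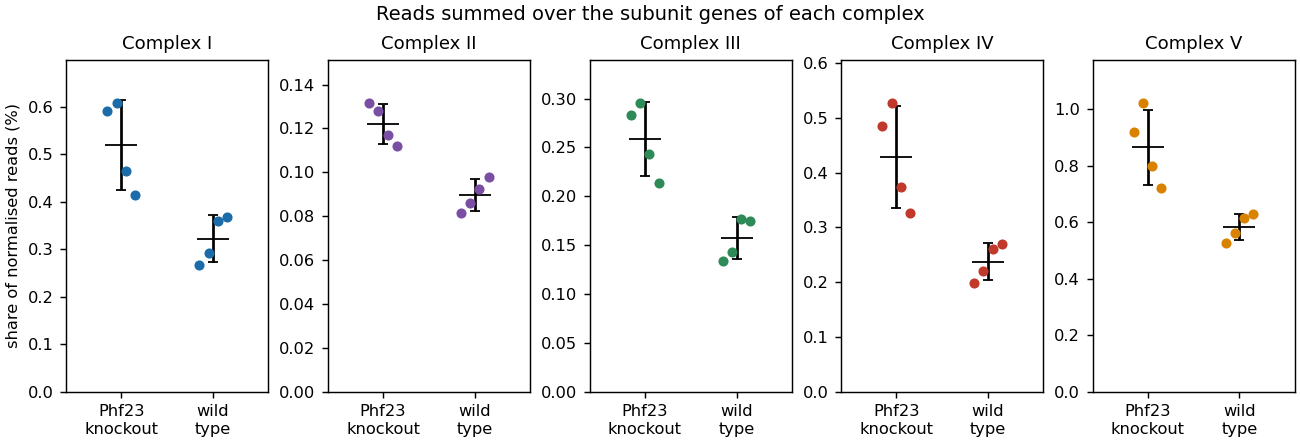
Share of all normalised reads (percent, y axes start at 0) taken by the subunit genes of each complex in each library; points left to right are replicates 1 to 4, bars are mean ± SD (n = 4). In all 5 complexes the 4 libraries labelled Phf23 knockout lie above the 4 labelled wild type, and replicates 1 and 2 of the genotypes lie farther apart than replicates 3 and 4.

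Genes of like length moved the same way, but less, in the classes under 3000 nt, and the other way in the class above. Above a limit of 100 normalised reads on the mean of a gene, 79 subunit genes and 10579 other protein-coding genes were set side by side in 7 classes of principal transcript length. Under 600 nt, 18 of 18 subunit genes were called higher, with a median log2 fold change of 1.08, beside 45 of 64 other genes (70.3%) with a median of 0.65. From 600 to 800 nt, 18 of 18 were higher (median 0.84), beside 67.4% of 172 others (median 0.60). From 1000 to 1500 nt, 14 of 14 were higher (median 0.75), beside 51.6% of 860 others (median 0.43), and from 1500 to 2000 nt 10 of 12 (median 0.51), beside 36.3% of 1091 others (median 0.28). The 4 subunit genes of 3000 nt and over, Ndufb2, Atp5g1, Ndufab1 and Sdhc, were all higher (median 0.77). Of the 5812 others in this class, 346 (5.95%) were called higher and 1823 lower (median -0.21). The 4 subunit genes also have much shorter annotated coding transcripts, down to 455 nt for Ndufb2 and 596 nt for Atp5g1, so their class is uncertain. In all, 73 of the 79 lay above the median of their class, and 55 above its upper quartile. Weighted to the lengths of the subunit genes, the other genes had a median of 0.46 and 54.9% of them were called higher, against a median of 0.79 and 76 of 79 for the subunit genes. Without ribosomal and proteasomal genes among the others, these values were 0.46 and 53.0%. The classes match length and not level. The median of the gene means was 3077 normalised reads for the 79 subunit genes and 809 for all protein-coding genes above the limit. With no limit on the mean, the weighted share of other genes called higher was 33.8%. How far level adds to the difference in called shares was not tested. By complex, the median of a subunit's log2 fold change minus its class median was 0.34 in complex I, 0.23 in II, 0.32 in III, 0.37 in IV and 0.24 in V. The distance between complexes IV and V, 0.94 against 0.72 before, thus became smaller. Across the 79 genes, log2 fold change and length had a Spearman rho of -0.54, as a description, beside -0.68 over all 10658 protein-coding genes at this level.

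**Figure D4:**
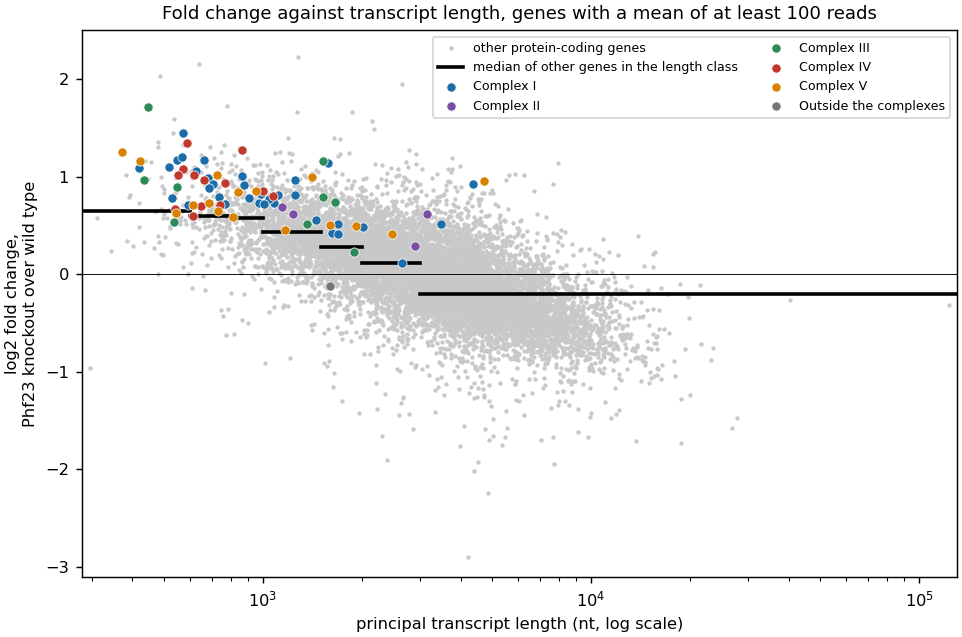
Log2 fold change, Phf23 knockout over wild type, against the principal transcript length (nt, log axis) for protein-coding genes that average 100 normalised reads or more; coloured points are subunit genes by complex, grey points the 10579 others, and black lines the median of the others in each of 7 length classes. The black lines step down from 0.65 under 600 nt to -0.21 at 3000 nt and over, and 73 of the 79 coloured points lie above their line.

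When a smooth trend with length and GC content was subtracted from every library, 58 of the 84 were called higher, with a median log2 fold change of 0.35, where 10.3% of all genes were called higher. None was lower at an unadjusted p under 0.05 by limma-trend. The called genes were 25 of 36 genes in complex I (median 0.38), 4 of 4 in II (0.33), 8 of 9 in III (0.36), 11 of 17 in IV (0.34) and 10 of 16 in V (0.31), so that the 5 medians lay close together. The complex I core then had 3 of 7 called and a median of 0.23, and the accessory set 22 of 29 and 0.41. With the longest annotated transcript in place of the principal one, 55 were called (median 0.42; 10.4% of all genes), and with the shortest coding one 78 (median 0.52; 11.8% of all genes). With the principal transcript, Atp5g2 (-0.000969, FDR = 0.997) and Atp5j (-0.01, FDR = 0.941) had log2 fold changes near 0. Those of Cox5b (0.88, FDR = 0.0234), Uqcr11 (0.85, FDR = 0.0374) and Cox6b2 (0.65, FDR = 0.00465) were among the larger ones. Without the 4 libraries with the steepest length slopes, which leaves 2 against 2, 48 were called higher (median 0.34), where 4.61% of all genes were called higher. Such calls rest mostly on variance shared across genes. When each library's slope entered the fit as a covariate, 0 of the 84 were called in either direction by limma-trend, 12 had an unadjusted p under 0.05, and the median was 0.17, where 0.644% of all genes were called higher. edgeR and DESeq2 were not run with that covariate. In these 8 libraries 3 of 4 slopes labelled Phf23 knockout lie below 0 and all 4 labelled wild type above it. Slope and genotype are thus aligned in part in such a fit. Its SE was 0.11 for Cox6a1, against 0.17 without the covariate, and 0.13 for Phf23, against 0.11. Phf23 itself stayed called with the covariate (0.66, limma-trend FDR = 0.0165). Whether the change in the subunit genes goes with slope or with genotype was not tested. In all, 40 of the 84 kept their call after the trend was subtracted, without the 4 libraries and with any 1 library left out. Among them were Ndufv3, Sdhd, Cyc1, Cox6a1, Cox4i1, Atp5b and Uqcr11. This count uses the trend of the principal transcript and leaves out the covariate fit, with 0 called, and the replicate block given below. The share of all genes that kept a call in the same way is not given here, so the count of 40 stands without a background. With the trend of the longest transcript, Cox6a1 (0.0052, limma-trend FDR = 0.987) and Cox4i1 (0.19, limma-trend FDR = 0.0656) were not called.

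The same pattern was seen library by library. The median log2 deviation of the 79 subunit genes from their own means came to 0.59, 0.80, 0.25 and 0.03 in libraries labelled Phf23 knockout 1 to 4, against -0.62, -0.54, -0.23 and -0.19 in those labelled wild type 1 to 4. That of the 1330 other protein-coding genes under 1500 nt was 0.39, 0.53, 0.13 and -0.07 in Phf23 knockout 1 to 4, against -0.41, -0.32, -0.12 and -0.10 in wild type 1 to 4. The most alike length slopes across genotypes were those of Phf23 knockout 4 (0.04) and wild type 3 and 4 (0.08 and 0.06). The median of the other short genes was -0.07 in Phf23 knockout 4, against -0.12 and -0.10 in wild type 3 and 4, and that of the subunit genes was 0.03 in Phf23 knockout 4, against -0.23 and -0.19 in wild type 3 and 4. This comparison rests on 1 library labelled Phf23 knockout, and it was not tested. With the trend subtracted, the subunit medians were 0.26, 0.31, 0.12 and 0.07 in Phf23 knockout 1 to 4, against -0.27, -0.22, -0.13 and -0.12 in wild type 1 to 4, so each genotype kept its side of 0.

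**Figure D5:**
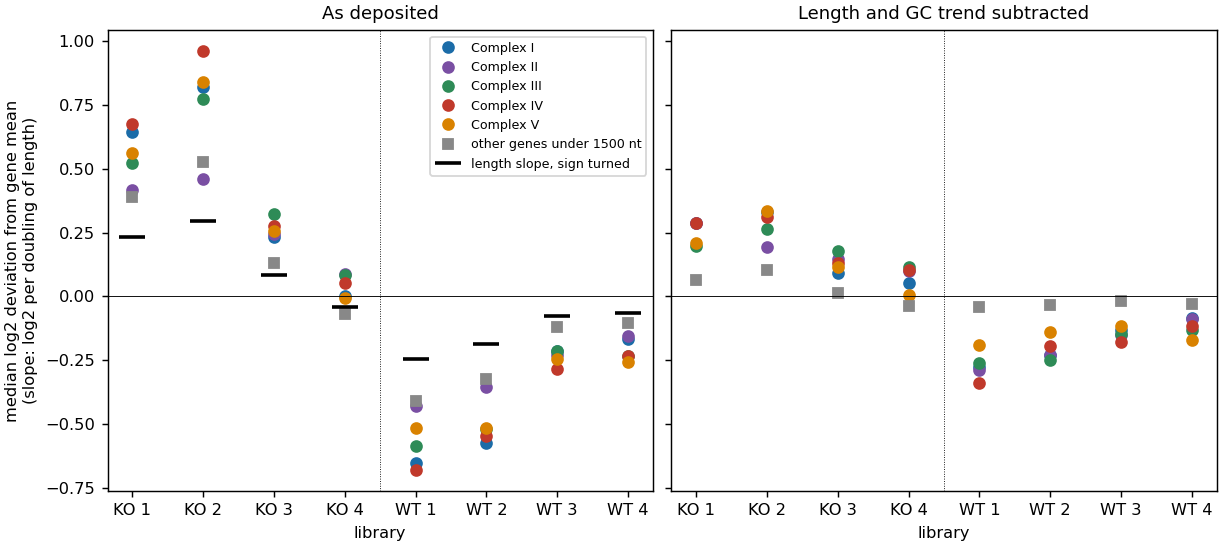
Median log2 deviation from the gene means in each library (KO, labelled Phf23 knockout; WT, labelled wild type) for the subunit genes of each complex and for 1330 other protein-coding genes under 1500 nt, as deposited and with the length and GC trend subtracted; black bars show the length slope of the library with its sign turned. As deposited, the medians lie farthest from 0 where the slope is steepest, in KO 1 and 2 and in WT 1 and 2. In KO 4, with a slope of 0.04, the other short genes lie at -0.07 and the complexes between -0.007 and 0.09. With the trend subtracted, the other short genes lie between -0.04 and 0.10 and the complexes between -0.34 and 0.33.

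Within the set, levels per kb spanned a wide range. In libraries labelled Phf23 knockout the order of the means began with Atp5b, Cox6a1, Atp5g3, Cox8a, Cox4i1 and Atp5a1. In those labelled wild type it began with the same 6 genes, but Atp5a1 came right after Cox6a1. Cox6a1 had 21265 ± 6081 normalised reads per kb in libraries labelled Phf23 knockout and 9816 ± 1021 in those labelled wild type (mean ± SD, n = 4 each). Atp5g3 had 17612 ± 4601 normalised reads per kb in libraries labelled Phf23 knockout and 8623 ± 1878 in those labelled wild type. Cox8a, an integral membrane subunit, had 17326 ± 5595 normalised reads per kb in libraries labelled Phf23 knockout and 8268 ± 857 in those labelled wild type. Cox4i1 had 15103 ± 3742 normalised reads per kb in libraries labelled Phf23 knockout and 7777 ± 1304 in those labelled wild type. Atp5a1 had 11628 ± 1186 normalised reads per kb in libraries labelled Phf23 knockout and 8707 ± 530.0 in those labelled wild type. The ranges of mean ± SD overlapped between neighbours among Cox6a1, Atp5g3, Cox8a and Cox4i1 in both genotypes. That of Atp5b lay above that of Cox6a1 in the libraries labelled wild type. These SDs also hold shifts that the genes share within a library, and genes were not compared within libraries. Overlap therefore does not show that neighbours had equal levels. At the low end, above Cox7a1, Cox8b, Cox4i2, Cox6a2 and Ndufa4l2, came Atp5s with 145 ± 15.7 normalised reads per kb in libraries labelled Phf23 knockout and 157 ± 5.15 in those labelled wild type. Some levels are uncertain. Another annotated gene matched the transcript of 30 of the 84 genes at 95% identity or more over at least 150 nt, with up to 9 such genes for Atp5l. The exons of 30 genes overlapped those of another gene, in 27 of them on the other strand, and whether counting used strand is not given in the sources used here.

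Genes that work beside the complexes were also called higher in part, and their difference from the subunit genes was not tested. The median principal transcript of the 3 lists that follow was longer than that of the subunit genes, at 1781, 1789 and 2544 nt. Over all genes, 14.8% were called higher and 14.8% lower. The share called higher was 10.3% with the trend subtracted and 4.61% without the 4 libraries with the steepest slopes. Among other protein-coding genes averaging 100 normalised reads or more, 36.3% from 1500 to 2000 nt were called higher (median 0.28). From 2000 to 3000 nt it was 20.8% (median 0.12). Of 44 measured assembly factors, which insert cofactors and build the complexes, 19 were higher and 0 lower (median 0.31), 12 were higher with the trend subtracted (median 0.24) and 2 without the 4 libraries with the steepest slopes (median 0.12). The lowest FDRs were those of Uqcc3, a complex III factor (log2 fold change 1.02 ± 0.18, SE; limma-trend FDR = 0.00384), Pet100, a complex IV factor (log2 fold change 1.39 ± 0.25, SE; limma-trend FDR = 0.00477), and Cox14, another complex IV factor (log2 fold change 1.04 ± 0.22, SE; limma-trend FDR = 0.00826). Of 21 electron carriers and exchangers of nucleotides and phosphate, 14 were higher and 0 lower (median 0.47), 7 were higher with the trend subtracted (median 0.22) and 4 without the 4 libraries (median 0.24). The lowest FDRs were those of Etfb, a subunit of the electron transfer flavoprotein (log2 fold change 0.91 ± 0.19, SE; limma-trend FDR = 0.00728), Vdac2, an outer membrane channel (log2 fold change 0.58 ± 0.12, SE; limma-trend FDR = 0.00728), and Slc25a4, an ADP/ATP carrier (log2 fold change 0.71 ± 0.15, SE; limma-trend FDR = 0.00746). Of 17 genes of the tricarboxylic acid cycle and pyruvate dehydrogenase, 11 were higher and 0 lower (median 0.30), 12 were higher with the trend subtracted (median 0.28) and 3 without the 4 libraries (median 0.21). The lowest FDRs were those of Mdh2, malate dehydrogenase (log2 fold change 0.68 ± 0.13, SE; limma-trend FDR = 0.00642), Suclg1, of succinyl-CoA ligase (log2 fold change 0.46 ± 0.0944, SE; limma-trend FDR = 0.00726), and Idh3b, of isocitrate dehydrogenase (log2 fold change 0.49 ± 0.11, SE; limma-trend FDR = 0.0103). In these 3 lists, edgeR and DESeq2 also called 0 genes lower, and 0 were lower at an unadjusted p under 0.05 by limma-trend in the fit on the deposited values.

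Of 14 regulators of respiratory chain genes, 1 was higher and 3 were lower (median -0.12), where 14.8% of all genes were called in each direction. Esrra, an orphan nuclear receptor, had 2155, 1767, 1662 and 1679.8 normalised reads in libraries labelled Phf23 knockout, against 946, 1015, 1103 and 1641 in those labelled wild type, a log2 fold change of 0.65 ± 0.16 (SE; limma-trend FDR = 0.0127). It was no longer called with the trend subtracted (0.27, limma-trend FDR = 0.0529) or without the 4 libraries (0.31, limma-trend FDR = 0.0539). Of the genes for GABP subunits, Gabpb2 was lower at -0.91 ± 0.20 (SE; limma-trend FDR = 0.00918) and Gabpa at -0.50 ± 0.12 (SE; limma-trend FDR = 0.0137), while Gabpb1, at -0.27 ± 0.11 (SE; limma-trend FDR = 0.0780), did not pass the threshold. Hcfc1, a transcriptional cofactor, was lower at -0.66 ± 0.16 (SE; limma-trend FDR = 0.0137). The principal transcripts of the 3 called genes run from 4987 to 8661 nt. Gabpa had 1041, 1179, 1226 and 1431 normalised reads in libraries labelled Phf23 knockout, against 1915, 1898, 1609 and 1464 in those labelled wild type, and was no longer called with the trend subtracted (-0.15, FDR = 0.161). Gabpb2 (-0.41) and Hcfc1 (-0.29) were still lower in that fit, in which Yy1 (0.35) and Ppargc1a (0.40) were higher. Without the 4 libraries limma-trend called 0 of the 14 lower, with 2 lower at an unadjusted p under 0.05, and Gabpb2 (-0.34, limma-trend FDR = 0.0847) and Hcfc1 (-0.26, limma-trend FDR = 0.113) were no longer called, while Ppargc1a (0.47) was the 1 higher. Nrf1 itself had 880.1 ± 89.2 normalised reads in libraries labelled Phf23 knockout, against 852 ± 28.4 in those labelled wild type (mean ± SD), with a log2 fold change of 0.04 ± 0.10 (SE; limma-trend FDR = 0.789). Of the 13 mitochondrially encoded subunits, 0 were called by limma-trend (median 0.13), 3 had an unadjusted p under 0.05, and edgeR called 0 and DESeq2 1. The 3 were mt-Nd3 (log2 fold change 0.62 ± 0.22, SE; limma-trend FDR = 0.0524), mt-Nd6 (log2 fold change 0.48 ± 0.21, SE; limma-trend FDR = 0.10) and mt-Atp6 (log2 fold change 0.57 ± 0.26, SE; limma-trend FDR = 0.113). Without the 4 libraries, 5 of the 13 were called higher (median 0.26), mt-Nd1 (0.37), mt-Nd2 (0.44), mt-Nd4 (0.40), mt-Nd6 (0.50) and mt-Atp6 (0.45). In that fit of 2 against 2 libraries, 4.61% of all genes were called higher, and such calls rest mostly on variance shared across genes. With the trend subtracted, 0 of the 13 were called and their median was 0.03. These transcripts were read from polyadenylated RNA, and mt-Nd6 lies on the other strand of the mitochondrial genome from most of the rest.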

How the data were processed

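RNA was sequenced in 8 libraries of neurospheres, 4 labelled Phf23 knockout and 4 wild type. Libraries were made from polyadenylated RNA with the NEBNext Ultra RNA reagents, per the labels' protocols. The submitters' processing notes name STAR 2.7.1a, DESeq2 1.38.3, fastp 0.23.4 and FastQC 0.12.1, and the mm10 build. How reads were counted, with which annotation and whether by strand, is not given in the sources used here. Signal values as deposited are read counts that the authors divided by 1 size factor per library (0.889 to 1.07). Whole reads were recovered for 100% of values at a tolerance of 1e-04. The table's 15602 rows held 64 repeats, which left 15538 genes, each with at least 11 reads in all, so no further filter was used.

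Symbols, coordinates (1-based) and lengths came from GENCODE M21, with the principal transcript of each gene. The subunit genes, lists, tests and named genes were chosen with earlier results of these data known. The test was limma-trend (limma 3.58.1 in R 4.3.3, robust empirical Bayes) on log2(value + 1), two-sided, with genotype as the only term and Benjamini-Hochberg adjustment over all genes (FDR under 0.05), as planned for normalised values. It was tested on simulated data first. The simulated reads had no trend with length or GC content, so that check does not cover the trend found here. A log2 fold change on this scale understates changes of genes with few reads. edgeR 4.0.16 called 4683 of 13324 genes on the recovered reads, and DESeq2 1.42.0 was run on them too. Other scalings, a replicate block, a pseudocount of 0.1, genes with a mean of 10 or more only, leaving out each library, and fits that treat length were alternatives. In these, each library had a loess trend (span 0.3) on log2 length and GC content taken off, or the length slope of each library, fitted to 13265 genes averaging 10 or more, entered as a covariate, or the 4 libraries with the steepest slopes were left out. The shortest coding transcript was added after seeing the data. The text names, per complex, the lowest FDR, the largest and smallest fold change and the highest level per kb, all isoform sets, genes not called and the 3 lowest FDRs of each list. The other members named were chosen after their values were seen. One of the 84 genes is counted in all sums and counts but is not reported here by itself.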

Additional observations from a re-analysis of the deposited data

Results flagged for a closer look

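Of 74 groups of 4 libraries screened, 1 gene and genotype at a time, 2 held a library far from the other 3, where chance gives about 1 in 20 groups. Cox6a2, the muscle form of its subunit, had 8.42 normalised reads in Phf23 knockout 2, against 2.89, 2.79 and 2.94 in Phf23 knockout 1, 3 and 4. Ndufa4l2 had 6.75 normalised reads in wild type 3, against 0.982, 1.92 and 1.94 in wild type 1, 2 and 4. Both genes had only a few reads in any library, and neither was called between genotypes.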

How the results depend on the processing

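The count of 77 subunit genes called higher stayed within 65 to 78 with any 1 library left out and within 76 to 77 under other scalings, tools, pseudocounts and filters. It was 48 when the 4 libraries with the steepest slopes were left out, 0 with the slope as covariate, and 7 with a replicate block. The labels give both genotypes the numbers 1 to 4 but name no shared animal, culture or day. Same-numbered libraries did not deviate together (r = -0.33, -0.133, -0.188 and -0.285 over 13271 genes), nor did any library correlate best with its own number. These correlations also carry the length slope, which was 0.25 in wild type 1 and -0.23 in Phf23 knockout 1. They therefore cannot show whether same-numbered libraries shared a culture or day. The median over these genes, 0.79 on the log2 scale, came to 0.35 after trend subtraction, 0.42 with that of the longest transcript, 0.17 with the covariate and 0.34 without the 4 libraries. The count over all genes, 4593, was 2724 and 2835 with the trend of the principal and the longest transcript, 167 with the covariate, 333 with the block, 1422 without the 4 libraries, and 1884 to 5861 with 1 library left out (1884 without Phf23 knockout 1, 2106 without wild type 2 and 2189 without wild type 1). In the fits that treat length, signs turned for Atp5g2 (-0.00097 with the trend subtracted, -0.35 for the longest transcript, -0.0802 with the covariate), Cox4i2 (-0.11 and -0.17 with the trend of the principal and the longest transcript), Cox6a2 (-0.016, longest transcript), Atp5j (-0.0146, principal transcript) and, with the covariate, Cox7a2 (-0.0046), Ndufc2 (-0.0085), Ndufa12 (-0.0298), Ndufb11 (-0.0537), Ndufc1 (-0.0039) and Uqcrb (-0.0405), and for no other of the 84. For Ndufa4l2, not called, DESeq2 gave 0.23, and leaving out 1 library gave -0.93 to 0.16, above 0 without wild type 3 (0.08) and without Phf23 knockout 2 or 4 (0.16). The cause of these changes was not tested. Depth limits Cox4i2, Cox6a2, Cox8b and Ndufa4l2, which had means of at most 32.1 normalised reads in either genotype.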
